A study of Mus musculus with 6 samples.

Results

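These data concern 9 genes that lie outside the chromosome 19 interval around *Nxf1* and in each of which 1 alternative RNA processing event, picked from splicing-sensitive arrays of mouse brain, was taken on to a gel assay. *Nxf1* encodes the major nuclear export factor for mRNA. The genes are *Mkln1*, *Ap1b1*, C430048L16Rik, 5730419I09Rik, *Abca5*, *Slamf7*, *Klf5*, *Mrpl24* and *Fkbp14*, and all rows that carry one of these symbols were taken. They made up 38 of 26514 rows, one row for each path of an event, and joined to 19 of 13002 events, in 9 of 7788 genes. Of the 19 events, 9 were the assayed ones, identified by the event name that heads the primers of each assay, and 10 were other events of the same genes. The outcome of the gel assays is not analysed here. The assayed events were chosen for their array scores, which were not used here. The ratios below were computed from intensities and need not equal those scores. They come from the same contrast on which the events were chosen, so no test was made on them.

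Brain RNA of 6 animals of the B6.CAST congenic line was hybridized to Affymetrix MJAY arrays, 1 array per animal. In this line a segment of chromosome 19 with *Nxf1* comes from CAST and lies on the C57BL/6J (B6) background, so the genotypes differ in that segment and not in *Nxf1* alone. There were 3 animals homozygous for the B6 allele of *Nxf1* and 3 homozygous for the CAST allele, in 3 same-sex littermate pairs, with no other treatment. One female pair was 46 days old, of backcross generation 37 and intercross generation 1. The other female pair was 23 days old, of backcross generation 36 and intercross generation 2. The male pair was also of backcross generation 36 and intercross generation 2. In this male pair the *Nxf1* B6 animal was 22 days old and the *Nxf1* CAST animal 23 days old. For each path of an event the table gives the intensity of exclusion and of inclusion probe sets in 2 sets called A and B, each pooled over the arrays of the set. The sets are not named by genotype. The header speaks of controls first and experiments second and defines its score as mutant over wild type, so set A was likely *Nxf1* B6 and set B likely *Nxf1* CAST. No value per animal is given, so the spread between animals is unknown and every difference below is a difference between 2 pooled values with no replicate check. How precise each value is was limited by the low number of arrays.

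Most of these genes can make more than one mRNA from the same DNA. A cassette exon is kept in or skipped, a retained intron is left in or removed, and alternative starts and ends change the first or last exons. The arrays carry probes for the exons and junctions on either path, so that a shift from one mRNA form to the other changes the exclusion and the inclusion intensity in opposite directions, whereas a change in the amount of all forms changes them together. For each event the exclusion-to-inclusion ratio of set B was divided by that of set A, both taken from the pooled intensities. This is the log2 ratio used here, and a value above 0 means relatively more exclusion in set B. An event is said to be past the fold where its ratio is over 0.5 in size on the log2 scale, a 1.41-fold difference. No q-value limit was applied, so this is not the study's own call.

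The genes have no common pathway. *Ap1b1* encodes the large beta subunit of the clathrin adaptor that sorts cargo at the trans-Golgi network and endosomes, *Abca5* an ATP-binding cassette transporter of lysosomal and endosomal membranes, and 5730419I09Rik, which RefSeq lists as a synonym of *C2cd5*, a protein with a calcium-binding C2 domain that acts in the insertion of vesicles into the plasma membrane. *Klf5* encodes a zinc finger transcription factor best known from epithelia, C430048L16Rik, a RefSeq synonym of *Rbm12b2*, an RNA-binding motif protein, and *Mrpl24* a protein of the large subunit of the mitochondrial ribosome. *Mkln1* encodes muskelin, a kelch-repeat protein found in a ubiquitin ligase complex, *Fkbp14* a prolyl isomerase of the endoplasmic reticulum that helps fold collagen, and *Slamf7* a receptor of natural killer and plasma cells. Of the 9 genes, 3 lie on chromosome 6 (*Mkln1*, *Fkbp14* and 5730419I09Rik) and 2 on chromosome 11 (*Ap1b1* and *Abca5*), and the others are on chromosomes 1, 3, 4 and 14. Positions are given as in the table, which does not name its genome build. The events of 1 gene only, 5730419I09Rik, lay inside the RefSeq span of their gene in GRCm38.p6, so the positions do not follow that build and no genomic sequence was read by position.

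The assays show which segment of each gene was followed. The 9 events were covered by 10 assays with 25 primers of 19 to 26 bases, since *Fkbp14* had 2. A pair of primers was used in 5 assays and 3 primers in the other 5, so that both forms could be amplified in competition. The primers of the 4 events with the largest ratios are given here 5′ to 3′ in lower case.
*Mkln1* primer 1: agatgttcccttgtcgattca
*Mkln1* primer 2: gggcacaaaagcagtcaaa
*Mkln1* primer 3: atgttccagtgcaatcttgg
*Ap1b1* primer 1: ggctcagcgagtagtgcag
*Ap1b1* primer 2: tctcccctttcttggttgtg
*Ap1b1* primer 3: cggacattttgctgctgaag
5730419I09Rik primer 1: ctccccatccagagaactga
5730419I09Rik primer 2: tcttttccagcactcccact
C430048L16Rik primer 1: aggggagtgtggtctccatt
C430048L16Rik primer 2: ctgtcaagatcccaggaagc

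The assays of *Fkbp14* are shown because they meet in 1 sequence. In capitals are the 20 bases that one assay reads on one strand and the other assay on the opposite strand, as exact reverse complements, so that the assays run outward in opposite directions from the same site.
*Fkbp14* assay a, primer 1: ggcaaagaaggaaaagtattttagta
*Fkbp14* assay a, primer 2: CTCCTGGAAATTCGAAATGG
*Fkbp14* assay a, primer 3: tcgtgatggctttcattcac
*Fkbp14* assay b, primer 1: tgggcatactggaggttctc
*Fkbp14* assay b, primer 2: CCATTTCGAATTTCCAGGAG

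Of the 9 assayed events, 5 were past the fold, in *Mkln1*, *Ap1b1*, 5730419I09Rik, C430048L16Rik and *Abca5*. The count was 2 with 50 added to every intensity, and 1 where all 4 intensities had to be at least 100, which kept 2 of the 9 events. Of all 12948 events with intensities, 7.34% were past the fold. The share over all events was 3.18% with 50 added, and 6.46% of 10188 events with the minimum of 100. These shares are printed for reference only, since the assayed events were picked on this contrast. Relatively more exclusion in set B was seen past the fold in 2 of the 9, against 4.52% of the 12553 events with an exclusion path, and relatively less in 3 of the 9, against 2.72%. The median absolute log2 ratio of the assayed events was 0.51, with a range from 0.17 to 0.85, and that of all events 0.18.

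The largest of the 9 ratios was that of *Mkln1*. Its assayed event is a complex event on the forward strand (chromosome 6, 31378225 to 31381139). The exclusion intensity was 216 in set A against 134 in set B, a difference of -0.69 on the log2 scale, and the inclusion intensity was 254 in set A against 284 in set B, a difference of 0.16. The paths thus differed in opposite directions, the exclusion path by the larger amount, and the log2 ratio was -0.85, rank 86 of all events by size. The lowest of these intensities, 134, was above that of most of the other assayed events. The other event of *Mkln1*, an alternative end 1992 bases downstream, had exclusion intensities of 823 in set A against 756 in set B and inclusion intensities of 177 and 169. Its log2 ratio was -0.06, so at this alternative end the balance of the paths was nearly equal in the sets.

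Among the genes of membrane traffic and transport, *Ap1b1* had a cassette exon whose exclusion was relatively higher in set B (chromosome 11, 4887034 to 4912905, forward strand). The exclusion intensity was 94 in set A against 122 in set B, and the inclusion intensity was 793 in set A against 658 in set B. The paths moved apart in opposite directions, by 0.38 for exclusion and -0.27 for inclusion on the log2 scale, which gave a log2 ratio of 0.65. This was the assayed event with the largest difference in its inclusion path. The alternative start of *Ap1b1* (4847523 to 4909532) ends directly before the inclusion path of the cassette event begins, but overlaps the span of its exclusion path by 22498 bases. This alternative start had exclusion intensities of 583 in set A against 561 in set B and inclusion intensities of 312 and 285. With a log2 ratio of 0.08, it showed little of the difference seen at the cassette exon.

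The assayed event of 5730419I09Rik, a cassette exon on the reverse strand (chromosome 6, 143021214 to 143026782), held the dimmest value of the 9. Its exclusion intensity was 96 in set A against 58 in set B, where 43 was the lowest intensity of any event in the table. Its inclusion intensity was 809 in set A against 756 in set B. Both paths were lower in set B, exclusion by -0.73 and inclusion by -0.10 on the log2 scale, and the log2 ratio was -0.63.

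The gene had 3 further events, and they did not share one direction. A cassette exon downstream (143015661 to 143022182), whose span overlaps that of the assayed event by 968 bases, had an exclusion intensity of 248 in set A against 281 in set B and an inclusion intensity of 3243 in set A against 2639 in set B. Its log2 ratio was 0.48, opposite in sign to the assayed cassette exon. The alternative start of 5730419I09Rik had exclusion intensities of 236 in set A against 175 in set B with inclusion intensities of 691 and 699, a log2 ratio of -0.45. The alternative end, which borders on the assayed event, had exclusion intensities of 208 and 187 and inclusion intensities of 1799 and 1557, so that both paths were lower in set B by similar amounts and the ratio was 0.05.

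*Abca5* had a retained intron as its assayed event (chromosome 11, 110188035 to 110189045, reverse strand). The exclusion intensity, that of mRNA without the intron, was 99 in set A against 63 in set B, and the inclusion intensity was 172 in set A against 156 in set B. Both paths were lower in set B, and the log2 ratio was -0.51. *Abca5* was the assayed event that passed the fold by the least, and since the intensities are rounded to whole numbers, rounding alone left its ratio anywhere between -0.54 and -0.48.

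The other events of *Abca5* are a complex event and a cassette exon upstream, which share an end and 8228 bases of their spans. In the complex event the exclusion intensity was 146 in set A against 127 in set B and the inclusion intensity 207 in set A against 242 in set B, a log2 ratio of -0.43. In the cassette exon event the exclusion intensity was 459 in set A against 414 in set B and the inclusion intensity 116 in set A against 134 in set B, a log2 ratio of -0.36. All events of *Abca5* thus had less exclusion relative to inclusion in set B, but the upstream events differed in both paths in opposite directions, and they are not independent of each other.

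Among the genes of transcription, RNA and translation, C430048L16Rik had 1 event, a complex event on the forward strand (chromosome 4, 12016874 to 12020911). The exclusion intensity was 79 in set A against 107 in set B, and the inclusion intensity was 511 in set A against 455 in set B. The paths differed by 0.44 and -0.17 on the log2 scale, and the ratio was 0.61. RefSeq lists *Rbm12b1*, a gene of the same name stem, on the same chromosome, and whether the probes tell the genes apart was not tested.

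*Klf5* also had 1 event, an alternative end on the forward strand (chromosome 14, 99702696 to 99712628). Its exclusion intensity was 519 in set A against 365 in set B, a log2 difference of -0.51, and its inclusion intensity was 196 in set A against 180 in set B, a log2 difference of -0.12. The exclusion path was the brighter one here, unlike in the other assayed events, and both paths were lower in set B. The log2 ratio of -0.39 was not past the fold, although the exclusion intensity alone was. Among all alternative ends *Klf5* stood at percentile 92.5 by size of the ratio.

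*Mrpl24* had an alternative start (chromosome 3, 87723427 to 87725738, forward strand), which the primer list describes as an alternative 5′ splice site. The exclusion intensity was 76 in set A against 62 in set B, and the inclusion intensity was 450 in set A against 447 in set B. Nearly all of the log2 ratio of -0.28 came from the exclusion path, which was close to the lowest intensities of the table in both sets, and the ratio was -0.16 with 50 added to every intensity. A complex event lies wholly within this one and shares its end (87723573 to 87725738), with exclusion intensities of 586 in set A against 596 in set B and inclusion intensities of 109 and 86. Its log2 ratio was 0.37, of the opposite sign and larger than that of the assayed event, and here the dim inclusion path carried the difference.

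*Fkbp14* had the smallest ratio of the assayed events. Its cassette exon (chromosome 6, 54535924 to 54539266, reverse strand) had an exclusion intensity of 72 in set A against 77 in set B and an inclusion intensity of 169 in set A against 161 in set B. The log2 ratio was 0.17, below the median of all events in size. The alternative start of *Fkbp14*, 152 bases upstream, had exclusion intensities of 314 in set A against 297 in set B and inclusion intensities of 293 and 326. Its log2 ratio of -0.23 was of the opposite sign, so that in this gene too the other event differed more than the assayed one.

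*Slamf7* had low intensities in every path. The assayed cassette exon (chromosome 1, 173566505 to 173568793, reverse strand) had an exclusion intensity of 83 in set A against 73 in set B and an inclusion intensity of 111 in set A against 129 in set B, a log2 ratio of -0.40. It was the assayed event in which the inclusion path differed more than the exclusion path. The alternative end, 63 bases downstream, had exclusion intensities of 116 in set A against 131 in set B and inclusion intensities of 83 and 100, a log2 ratio of -0.09. Both its paths were higher in set B by similar amounts. Of the 7 fixed markers of microglia and leukocytes, 3 were in the table (*Csf1r*, *Ptprc* and *Itgam*), with highest intensities from 258 to 667. Of their 4 events, 1 was past the fold, an alternative 3′ splice site of *Csf1r* with a log2 ratio of -1.13. Over all events the share was 7.34%, and 4 events are too few to set against it. The part of such cells in the *Slamf7* values was not tested, and in bulk RNA fewer cells of a type and less RNA per cell cannot be told apart.

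**Figure D1:**
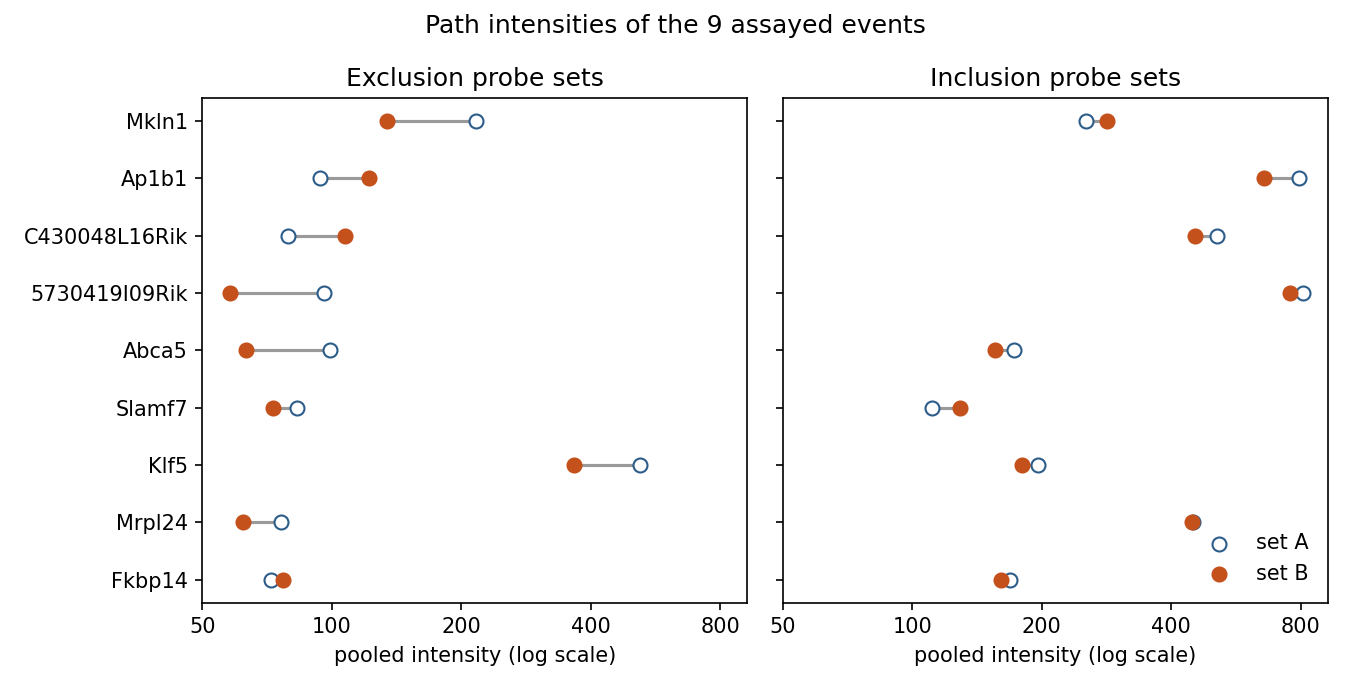
Pooled exclusion (left) and inclusion (right) intensities of the 9 assayed events on a log scale, with set A as open and set B as filled points joined by a line for each gene. The longest lines are those of the exclusion path in *Mkln1* (216 and 134), 5730419I09Rik (96 and 58) and *Abca5* (99 and 63), while the inclusion values of *Mrpl24* (450 and 447) almost coincide.

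The exclusion path carried most of the difference in 8 of the 9 assayed events, against 55.5% of all events with an exclusion path. The exclusion intensity alone was past the fold in 4 of the 9 assayed events, *Mkln1*, 5730419I09Rik, *Abca5* and *Klf5*, and lower in set B in each. Of all exclusion intensities 5.05% were past the fold, 1.82% lower and 3.23% higher in set B. No inclusion intensity of the assayed events was past the fold, against 1.63% of all, and the largest inclusion difference was that of *Ap1b1*. The paths differed in opposite directions in 5 of the 9, *Mkln1*, *Ap1b1*, C430048L16Rik, *Slamf7* and *Fkbp14*, against 39.4% of all events. In the other 4 assayed events both paths were lower in set B. These counts follow in part from the choice of the events by their scores. Among all events past the fold, the exclusion path carried most of the difference in 72.6%, and the paths differed in opposite directions in 82.0%. Of the 5 assayed events past the fold, the exclusion path carried most of the difference in each. Their paths differed in opposite directions in *Mkln1*, *Ap1b1* and C430048L16Rik, but not in 5730419I09Rik and *Abca5*.

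**Figure D2:**
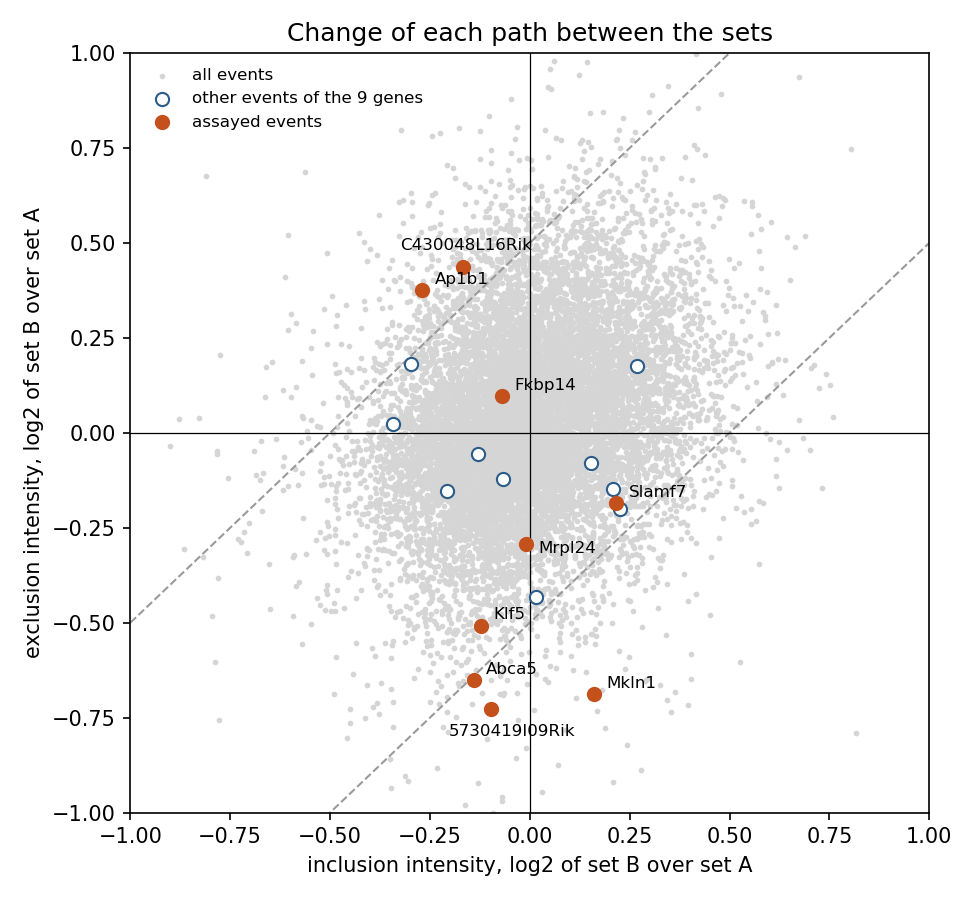
Difference of the exclusion intensity (vertical axis) against that of the inclusion intensity (horizontal axis), both as log2 of set B over set A, for 12553 events (grey), the assayed events (filled, labelled) and the other events of the 9 genes (open); 15 events outside the plotted range are not shown, and the dashed lines mark log2 ratios of 0.5 and -0.5. *Mkln1*, 5730419I09Rik and *Abca5* lie below the lower dashed line and *Ap1b1* and C430048L16Rik above the upper one, while the open points all lie between them.

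The other events of these genes were not the ones taken to gels, although the spans of some overlap with them. Of these 10 events, 0 were past the fold, against 7.34% of all events and against 7.43% of the 1076 events whose gene had a different event past the fold. The second share applies only to the other events of *Mkln1*, *Ap1b1*, 5730419I09Rik and *Abca5*, since *Slamf7*, *Mrpl24* and *Fkbp14* had no event past the fold. Because 10 events at the share of all events give fewer than 1 event past the fold, the count does not set them apart. Their median absolute log2 ratio was 0.30, with a range from 0.05 to 0.48, against 0.18 for all events. The event nearest to the fold without passing it was the downstream cassette exon of 5730419I09Rik, at 0.48. The assayed event had the larger ratio in 5 of the 7 genes with further events, and the exceptions were *Mrpl24* and *Fkbp14*. This count follows in part from the choice of the assayed events on the same contrast. The sign was the same as in the assayed event for 6 of the 10 other events. The exclusion path carried most of the difference in 2 of these 10, the alternative end of *Mkln1* and the alternative start of 5730419I09Rik. It did so in 8 of the 9 assayed events and in 55.5% of all events with an exclusion path. The exclusion path was the dimmer one in 5 of the 10, in 8 of the 9 and in 55.1% of all. The dimmer path carried most of the difference in 5 of the 10, in 7 of the 9 and in 57.5% of all.

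**Figure D3:**
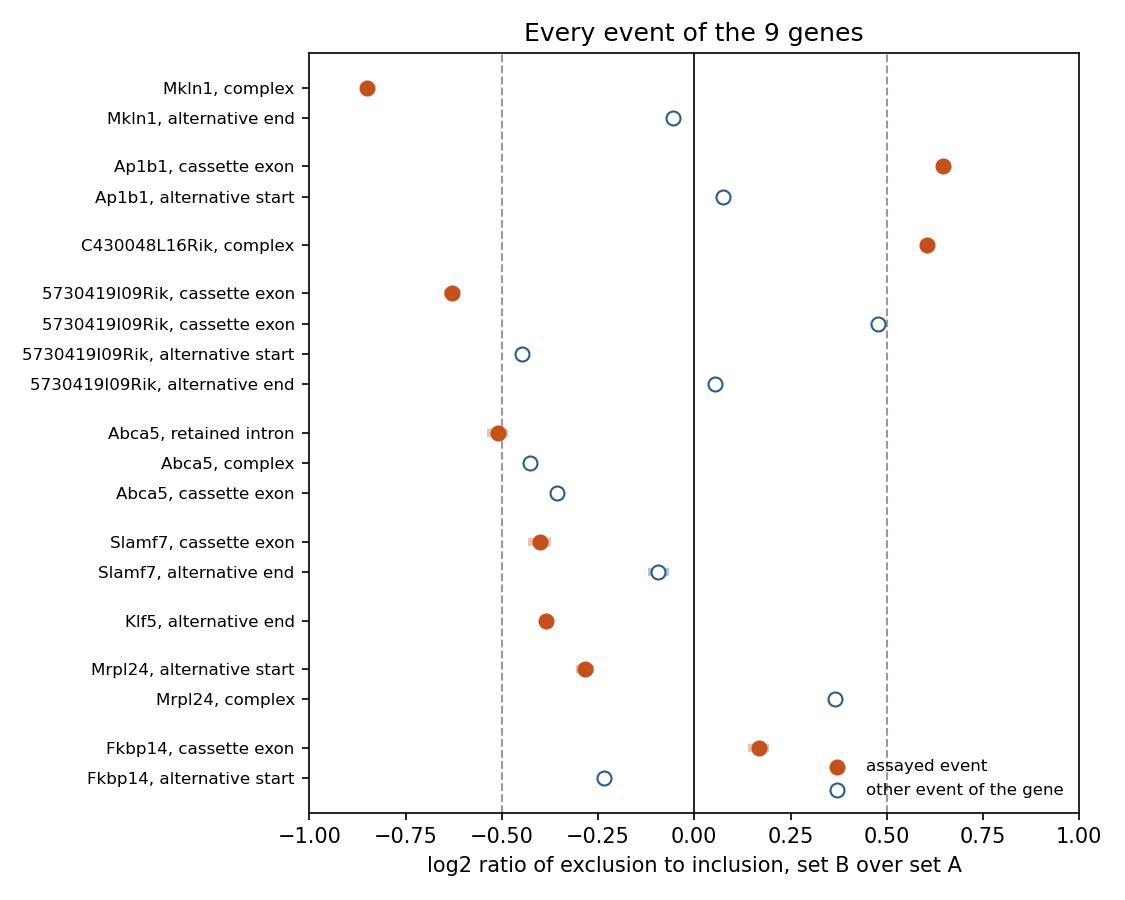
Log2 ratio of set B to set A in exclusion over inclusion (horizontal axis), for all 19 events of the 9 genes (rows), with assayed events filled and other events open; shaded bars show the range left by rounding of the intensities, and dashed lines mark 0.5 and -0.5. Only filled points lie beyond the dashed lines, and the events of 5730419I09Rik, *Mrpl24* and *Fkbp14* fall on both sides of 0.

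**Figure D4:**
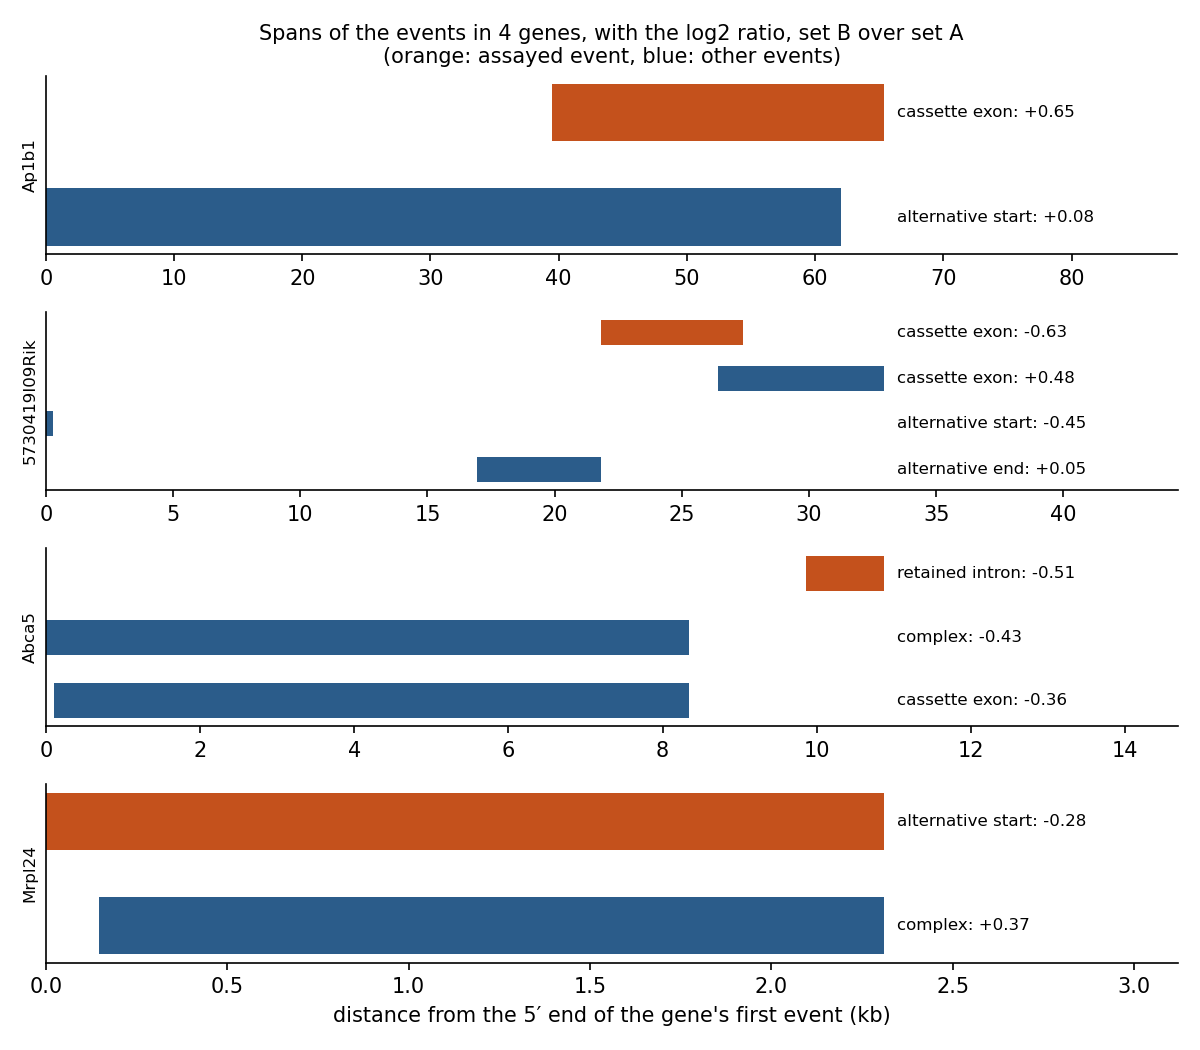
Spans of the events in *Ap1b1*, 5730419I09Rik, *Abca5* and *Mrpl24* by distance from the 5′ end of the gene's first event in kb (horizontal axis), drawn in the direction of transcription, with each log2 ratio beside its bar. The events of *Mrpl24*, with ratios of -0.28 and 0.37, share 2165 bases, and the assayed retained intron of *Abca5* lies apart from the other events of that gene, which overlap each other.

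The assayed events were of 5 types. Past the fold were 2 of the 4 cassette exons (*Ap1b1* and 5730419I09Rik), where 8.56% of all cassette exons were, both complex events (*Mkln1* and C430048L16Rik), where 8.38% of complex events were, and the retained intron of *Abca5*, where 9.87% of retained introns were. The alternative end of *Klf5* and the alternative start of *Mrpl24* were not, types of which 2.78% and 6.32% were. These shares by type are also for reference only, since the assayed events were picked on this contrast. The number in brackets in an event name equals the span of the event less 2 bases in 93.7% of 1068 retained introns, the *Abca5* intron of 1008 bases among them, and was read as the length of the alternative segment. Read so, the cassette exons of *Ap1b1* (63 bases) and *Fkbp14* (90 bases) are multiples of 3, which within coding sequence leaves the reading frame intact, whereas those of *Slamf7* (104 bases) and 5730419I09Rik (125 bases) are not. Over the table, 53.1% of 3765 cassette exons had a multiple of 3. The cassette exons past the fold, *Ap1b1* and 5730419I09Rik, thus include one of each kind, with ratios of opposite sign.

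The assayed events had low intensities, which differ between probe sets and are no measure of RNA level between genes. All events were divided into 4 bins of nearly equal size by the lowest of their intensities, and 7 of the 9 assayed events fell in the dimmest bin, with a lowest intensity of 107 or less, as did 2 of the 10 other events. The exceptions among the assayed events were *Mkln1* and *Klf5*. The median of the lowest intensity was 73 for the assayed events, 172 for the other events and 170 for all events. Of all events in the dimmest bin 10.1% were past the fold, and of those in the next brighter bins 7.82%, 7.02% and 4.39%. Of the 5 assayed events past the fold, 4 were in the dimmest bin, against 328 of all 950 events past the fold. With 50 added to every intensity, which lowers the weight of dim values, the ratios of *Mkln1* and *Ap1b1* stayed past the fold at -0.67 and 0.51, and those of C430048L16Rik, 5730419I09Rik and *Abca5* were 0.44, -0.34 and -0.29. Those of *Klf5*, *Slamf7*, *Mrpl24* and *Fkbp14* were -0.36, -0.27, -0.16 and 0.11. Whether the dim signal has a part in these ratios was not tested beyond this.

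**Figure D5:**
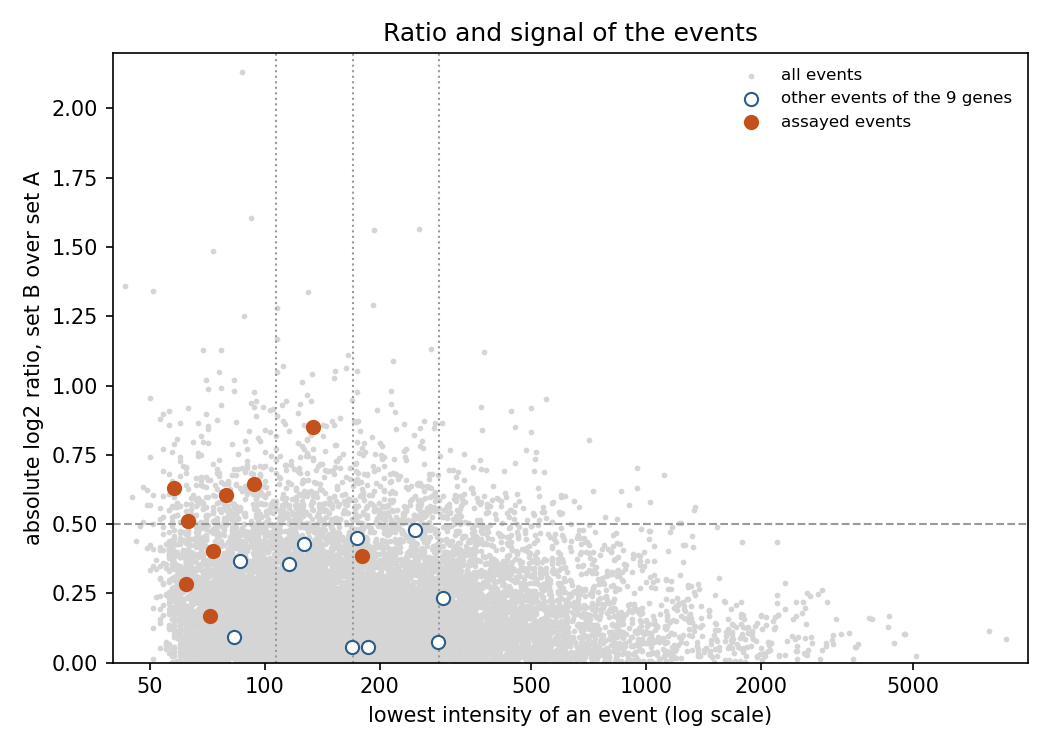
Absolute log2 ratio of set B to set A in exclusion over inclusion (vertical axis), against the lowest intensity of an event on a log scale (horizontal axis), for 12948 events (grey), the assayed events (filled) and the other events of the 9 genes (open); dotted lines divide the events into these 4 bins and the dashed line marks 0.5. Of the filled points, 7 lie left of the first dotted line, and *Mkln1*, at a lowest intensity of 134, is the highest filled point.

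Genes related to the 9 were described by the same ratio. Of 4 events in 4 other subunits of the adaptor that contains *Ap1b1*, 0 were past the fold, with a median absolute log2 ratio of 0.10, and 0 were in 6 events of 5 other genes of the KLF family (0.22), in 10 events of 7 other FKBP genes (0.18), in 9 events of 7 other ABC subfamily A genes (0.14) and in 2 events of 2 genes of the SLAM family (0.27), against 7.34% and a median of 0.18 for all events. The FKBP genes include *Fkbp2*, which, unlike the 9 genes, lies in the chromosome 19 interval around *Nxf1*. Its event, with a log2 ratio of -0.25, was itself assayed on a gel. Among the partners of *Mkln1* in its ubiquitin ligase complex, 1 of 9 events in 6 genes was past the fold. It was a complex event of *Ranbp9*, a scaffold of that complex, with exclusion intensities of 591 in set A against 824 in set B, inclusion intensities of 1002 and 959, and a log2 ratio of 0.54, opposite in sign to *Mkln1*. Among the other genes of the large mitochondrial ribosomal subunit, 1 of 25 events in 15 genes was past the fold, an alternative 3′ splice site of *Mrpl3*. Its exclusion intensity was 235 in set A against 290 in set B, its inclusion intensity was 797 in set A against 667 in set B, and the log2 ratio was 0.56. Neither count differed from the share of all events by more than 1 event.

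The labelled tissue was checked against markers of brain cells. In the table were 5 of 7 neuronal markers, with highest intensities from 2675 to 12087, 5 of 5 astrocyte markers (416 to 10330) and 3 of 5 oligodendrocyte markers (3266 to 11314). Intensities of different probe sets are not levels that can be set against each other, so this says only that the markers were listed with signal. None of the 21 events of these 3 lists was past the fold, against 7.34% of all events. Of the 3 markers of endothelium, 2 were in the table, with highest intensities of 405 and 712. Of their 6 events, 0 were past the fold. So few events cannot set the lists apart from all events. Of the markers of liver and epithelium, 0 of 4 had an event in the table, so other tissue could not be looked for in this way.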

How the data were processed

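Total brain RNA of 6 mice, 3 of each *Nxf1* genotype, was measured on Affymetrix MJAY arrays, and the authors deposited 1 table of all events. Its intensity columns hold summarized exclusion and inclusion probe set intensities, pooled by the authors over the arrays of a set and rounded to whole numbers. Affymetrix Power Tools is named in the submitters' processing notes; background correction, normalization, version and genome build are not given in the sources used here. The table also holds the authors' scores and q-values for paired and standard comparisons, which were not used. Both comparisons list the same intensities, with 0 differences over 26304 rows. From these, the exclusion-to-inclusion ratio of set B was divided by that of set A for each path, and log2 was taken. An event took its path with the largest absolute value, signed as exclusion over inclusion. The fold of 0.5 was taken from the study's methods, which set it on the authors' score together with a q-value limit. Here it was set on the ratio alone, so the events past the fold are not the study's calls. Without values per array no replicate error could be computed here, depth does not apply and no test could be made from the intensities.

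The rule for naming was the 9 genes with all their events, and events past the fold among related genes. No gene was named for likeness of pattern, since there are 2 pooled sets only. The members and lists were chosen with earlier results of these data known. All 9 symbols matched RefSeq, 7 by symbol and 2 by synonym. Alternatives were other folds (0.4 and 1), an offset of 50, a minimum intensity of 100, centring on the median and the first listed path. The computation was tested on simulated data with little noise and with differences set well past the fold, which checks the arithmetic only. Python 3.11.15, numpy 2.4.6, pandas 2.3.3 and matplotlib 3.10.9 were used.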

Additional observations from a re-analysis of the deposited data

How the results depend on the processing

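No paired analysis was possible because the table holds intensities pooled over the arrays of a set and the authors' own paired scores were not used, and for the same reason no animal could be left out. The count of 5 assayed events past the fold became 6 at a fold of 0.4, 0 at a fold of 1, 2 with 50 added to each intensity, and 1 where all 4 intensities had to be at least 100, which left 2 of the 9 events. In the same order, the shares over all events tested were 14.0%, 0.224%, 3.18% and 6.46%, against 7.34% at the main setting. The count of 0 other events became 3 at a fold of 0.4, where 14.0% of all events were past it. The 4 path intensities past the fold became 1 with the offset, as did the 4 past-fold events of the dimmest bin of intensity. At the main setting 5.05% of all exclusion intensities, 1.63% of all inclusion intensities and 10.1% of all events in the dimmest bin were past the fold. The matching shares with the offset are not given, so these changes cannot be set against all events. The 2 events of related genes became 5 at a fold of 0.4 and 1 with the offset. Centring (by 0.03) and the first listed path changed none of these counts that were recomputed under them. Over all events centring moved the share of higher calls from 62.4% to 50.7%, while the assayed events stayed at 2 higher and 3 lower. All 9 assayed ratios kept their sign under the offset, centring and the first listed path. The lowest intensity was 107 or less in 7 of the 9 assayed events.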
